A study of Rattus norvegicus with 192 samples.

Results

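Glutathione S-transferases were followed in rat liver, thyroid, pituitary and hypothalamus through 8 genes: the alpha-class genes Gsta1, Gsta2, Gsta3 and Gsta4, the mu-class genes Gstm1 and Gstm2, the pi-class gene Gstp1 and the theta-class gene Gstt1. The 8 were chosen by symbol, out of 17483 genes in 2 count tables, and all 8 had a row in both. Wild-type adult male Crl:CD(SD) rats were dosed by oral gavage once daily for 7 days, from postnatal day (PD) 56 to PD62. The vehicle group received corn oil alone, the vancomycin group 8 mg/kg/day, the PFOS (perfluorooctanesulfonic acid) group 3 mg/kg/day, and the combined group both compounds at those doses. RNA was measured by bulk RNA barcoding and sequencing, a 3′ method in which each well of a 96-well plate gives 1 library, with 12 libraries for each of the 16 combinations of tissue and treatment. In bulk tissue, fewer cells of a type and less RNA per cell cannot be told apart.

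Glutathione S-transferases join the thiol of the tripeptide glutathione to electrophilic molecules, which makes them more soluble and marks them for export. The conjugates leave the cell through ABC transporters and are trimmed by gamma-glutamyl transferases and peptidases to mercapturic acids. The alpha and mu classes are abundant in hepatocytes, where many are inducible through the xenobiotic receptors CAR (gene Nr1i3) and PXR and through NRF2, a transcription factor that binds antioxidant response elements. Gsta4 acts mainly on 4-hydroxynonenal, an aldehyde made when lipids are oxidised. Gstp1 is low in normal adult rat liver and is known as a marker of preneoplastic liver foci. Gstt1 conjugates small halogenated molecules. PFOS is a persistent fluorinated surfactant that activates PPARα and CAR in rodent liver, and vancomycin is an antibiotic that acts in the gut lumen and is poorly absorbed.

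Promoters from RefSeq (build GRCr8) were found for 7 of the 8 members, and Gstt1 had no entry. The stretches printed here are the 250 bases before the start of transcription, 5′ to 3′ on the gene's own strand, for 5 members with contrasting tissue patterns and for Gsta5, an alpha-class gene that is not a member but rose with PFOS in liver. Capitals mark TGACNNNGC, the core of an antioxidant response element, and TATAA between 40 and 20 bases before the start. For Gsta3 the first of 2 listed starts is shown.
Gsta1, chr9:31216533-31216782, minus strand: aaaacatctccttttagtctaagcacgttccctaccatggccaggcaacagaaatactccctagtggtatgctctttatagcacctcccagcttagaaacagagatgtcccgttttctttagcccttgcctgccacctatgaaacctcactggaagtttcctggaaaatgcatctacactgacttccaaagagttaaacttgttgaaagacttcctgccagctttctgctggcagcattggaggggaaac
Gsta2, chr8:88077093-88077342, minus strand: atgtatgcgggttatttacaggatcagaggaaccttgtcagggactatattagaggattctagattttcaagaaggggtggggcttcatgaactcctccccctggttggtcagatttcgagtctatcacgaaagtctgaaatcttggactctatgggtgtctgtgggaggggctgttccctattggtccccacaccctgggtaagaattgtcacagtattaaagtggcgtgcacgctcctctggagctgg
Gsta5, chr8:87988104-87988353, plus strand: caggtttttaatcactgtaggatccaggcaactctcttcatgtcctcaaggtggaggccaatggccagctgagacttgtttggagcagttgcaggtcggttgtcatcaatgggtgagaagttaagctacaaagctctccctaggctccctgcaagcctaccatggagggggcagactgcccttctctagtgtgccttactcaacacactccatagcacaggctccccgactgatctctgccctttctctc
Gsta3, chr9:31154739-31154988, plus strand: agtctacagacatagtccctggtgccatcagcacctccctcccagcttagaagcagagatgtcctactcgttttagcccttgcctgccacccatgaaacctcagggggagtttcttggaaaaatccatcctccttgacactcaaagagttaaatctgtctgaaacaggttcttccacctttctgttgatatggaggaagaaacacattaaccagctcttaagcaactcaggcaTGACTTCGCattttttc
Gstm1, chr2:198343384-198343633, minus strand: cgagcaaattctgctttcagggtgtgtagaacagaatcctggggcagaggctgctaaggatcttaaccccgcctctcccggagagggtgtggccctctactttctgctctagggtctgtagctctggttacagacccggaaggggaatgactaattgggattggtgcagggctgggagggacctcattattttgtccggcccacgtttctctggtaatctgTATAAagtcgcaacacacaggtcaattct
Gstp1, chr1:210769706-210769955, minus strand: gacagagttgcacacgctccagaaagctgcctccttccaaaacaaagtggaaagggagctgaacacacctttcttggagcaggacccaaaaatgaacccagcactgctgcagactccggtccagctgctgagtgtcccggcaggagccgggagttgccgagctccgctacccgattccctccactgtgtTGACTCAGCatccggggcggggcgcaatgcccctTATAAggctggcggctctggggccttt

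The Gstp1 stretch held both motifs, with TGACTCAGC starting 61 bases before the start and TATAA 27 bases before it. TATAA began 29 bases before the start of Gstm1. The Gsta3 stretch held TGACTTCGC 17 bases before the start, while the window of the other listed Gsta3 start held neither motif. In Gsta1 (TGACTTTGC) and Gsta2 (TGACCTAGC, on the opposite strand) a match lay in the 50 bases after the start, which are not printed. Over windows of 300 bases (250 before the start and 50 after) TGACNNNGC on either strand occurred in 12.1% of 33469 RefSeq promoters, and TATAA on the gene's strand at that distance in 2.48%. The windows of Gsta4, Gstm2 and Gsta5 held neither. The Gstp1 window had 15 CpG sites and 58% G+C against a median of 7 CpG sites and 51.7% over all windows, and the Gsta1 window had 2 CpG sites. A match of letters is a description of the window and does not show binding.

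Of 192 libraries, 178 had at least 100000 counts and were kept. The 14 left out were 11 livers, 2 thyroids and 1 hypothalamus, so the liver groups held 9 (vehicle), 10 (vancomycin), 8 (PFOS) and 10 (both) libraries, and the thyroid PFOS group 10 and the combined hypothalamus group 11. Totals ran from 106742 to 3387946 counts in liver (median 481289), from 208981 to 1136183 in thyroid (501447), from 231929 to 2804779 in pituitary (517282) and from 172700 to 1240091 in hypothalamus (726925). Each treatment filled its own row of a plate, so treatment and row cannot be told apart, and 5 of the 9 vehicle livers carried barcodes of a G+C count unlike the rest of the tissue. The tissues carried their own defining genes, with albumin (Alb) at 67740 CPM (counts per 1000000 counts) in vehicle liver and growth hormone (Gh1) at 308800 CPM in pituitary. Each also held traces of another tissue: thyroglobulin (Tg) in liver was 2.62% of its thyroid level, Alb in thyroid 0.735% of its liver level and Gh1 in hypothalamus 1.47% of its pituitary level. Nothing in the labels says that each library came from a separate animal, so p-values measure the spread between these libraries.

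In vehicle-treated rats the 8 genes together made up 1.04% ± 0.301 of all counts in liver (SD, n = 9), 0.639% ± 0.0908 in thyroid, 0.280% ± 0.0373 in hypothalamus and 0.160% ± 0.0182 in pituitary (n = 12 each). They accounted for 54.5% of all glutathione transferase counts in liver, 75.7% in thyroid, 69.2% in pituitary and 52.0% in hypothalamus, the rest falling on 22 other measured genes of the superfamily. Each tissue had its own leading genes by share of the members' counts. Gstm1 (48.7%), Gsta2 (26.8%) and Gsta1 (19.1%) led in liver. Gsta1 (44.9%) and Gstp1 (29.6%) led in thyroid, Gstp1 (36.6%) and Gsta1 (23.9%) in pituitary, and Gstm1 (39.3%) and Gstp1 (29.4%) in hypothalamus. These are shares of 3′ tags, which do not scale with transcript length but can be captured with unequal efficiency, so they do not rank transcripts exactly.

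**Figure D1:**
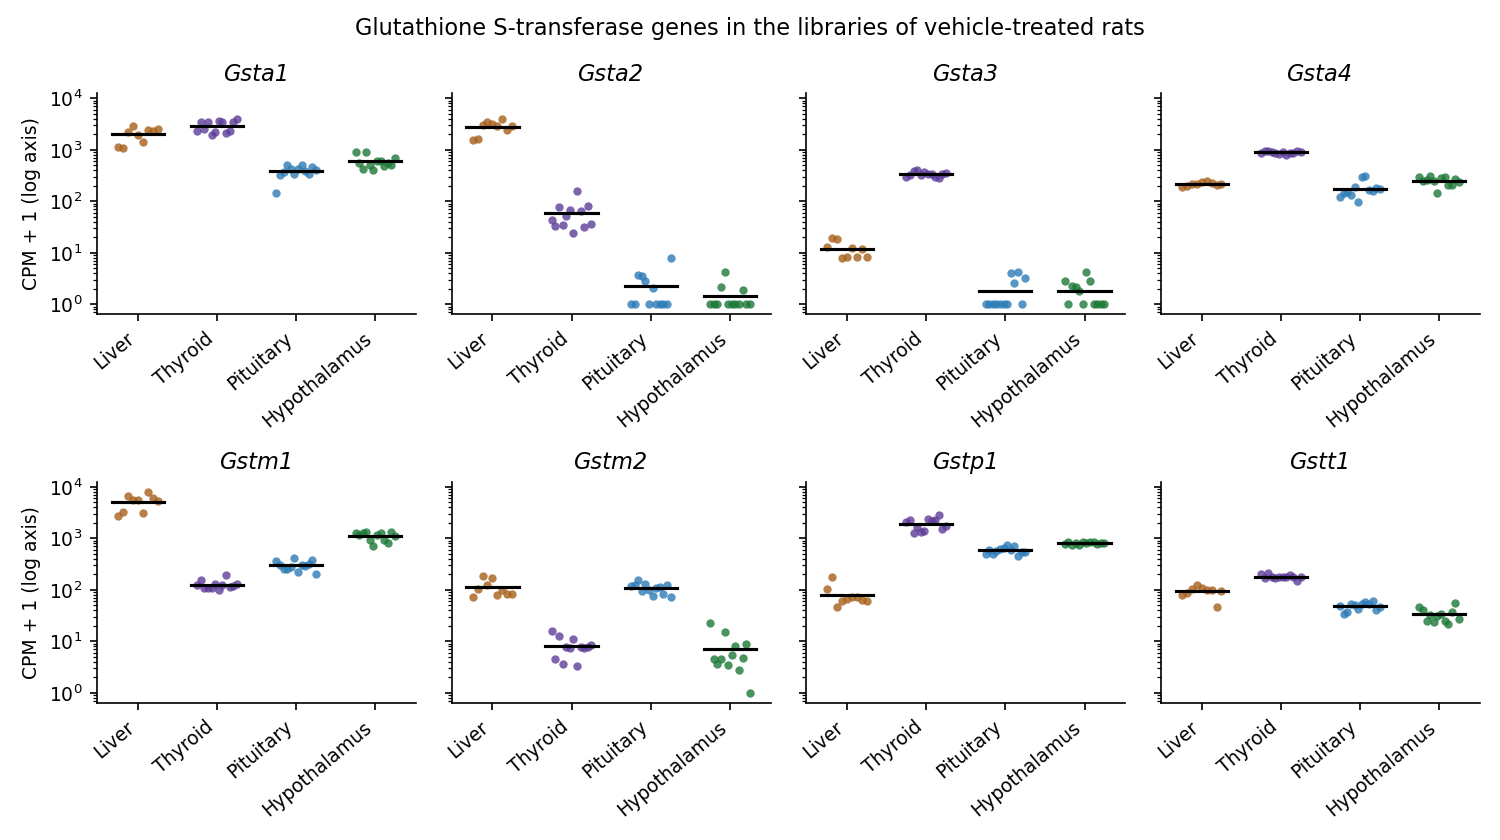
CPM + 1 (log axis) of each member in every kept vehicle library (points) with the group mean (bar), by tissue. Gsta2 stands apart in liver (1524 to 4022 CPM), Gsta3 in thyroid (287 to 401 CPM), and Gstm1 forms 4 steps that do not overlap.

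Among the alpha-class genes, Gsta2 was a liver gene in these data. Its lowest, median and highest vehicle libraries were 1524, 2875 and 4022 CPM in liver and 23.8, 47.4 and 160 CPM in thyroid, while 7 of 12 pituitaries and 9 of 12 hypothalami had no Gsta2 count. No library of another tissue came near the liver range. Gsta3 had the opposite home, with 287, 335 and 401 CPM in thyroid against 6.89, 11.1 and 18.7 CPM in liver, and it was at 0 in 8 of 12 pituitaries and 6 of 12 hypothalami. Its liver level was 3.28% of its thyroid level, near the 2.62% at which Tg itself appeared in liver, and the Gsta2 level in thyroid was 2.10% of that in liver, above the 0.735% to 1.37% of Alb, Apoa1 and Ahsg there. Over all treatments, Tg and Gsta3 in liver had r = 0.428 (rho 0.462, adjusted permutation p = 0.00294 for r over 15 relations, n = 37), and r = 0.409 without the 2 farthest libraries. Alb and Gsta2 in thyroid had r = 0.279 (adjusted permutation p = 0.0871) and rho 0.382 (adjusted permutation p = 0.0198, n = 46), and r = 0.207 without the 2 farthest.

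Gsta1 was broadly present. It ran from 1105 to 2849 CPM in liver (median 2257) and from 1914 to 4043 CPM in thyroid (2957), ranges that overlap. It ran from 147 to 514 CPM in pituitary (394) and from 402 to 911 CPM in hypothalamus (556), below every liver and thyroid library. Gsta4 was highest in thyroid, at 785, 891 and 966 CPM for the lowest, median and highest libraries, above every library of the other tissues. Its liver range of 189 to 247 CPM lay inside the pituitary range of 95.1 to 312 CPM, and the hypothalamus ran from 145 to 305 CPM.

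The mu-class genes differed from each other. Gstm1 formed 4 separate steps: 100.3 to 191 CPM in thyroid, 206 to 413 CPM in pituitary, 722 to 1348 CPM in hypothalamus and 2732 to 7897 CPM in liver. Gstm2, its neighbour on chromosome 2, was shared by liver (73.2, 96.9 and 187 CPM) and pituitary (73.2, 111 and 154 CPM), and was low in thyroid (mean 7.15 CPM ± 3.7, n = 12) and hypothalamus (6.08 CPM ± 6.08, n = 12). The Gstm1 level in thyroid was 2.46% of that in liver, against 0.735% to 1.37% for Alb, Apoa1 and Ahsg. Over all treatments, Alb and Gstm1 in thyroid had r = 0.390 (adjusted permutation p = 0.0201, n = 46) and rho 0.227 (adjusted permutation p = 0.187). Without the 2 farthest libraries r was 0.125. The part of the liver trace in the thyroid Gstm1 values was not tested.

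Gstp1 showed the reverse of the liver-rich pattern. The lowest, median and highest libraries were 45.9, 66.4 and 178 CPM in liver, 454, 578 and 749 CPM in pituitary, 746, 819 and 864 CPM in hypothalamus and 1254, 1914 and 2782 CPM in thyroid. Every liver library lay below every library of the other tissues, and every thyroid library above them. Tg in liver stood at 2.62% of its thyroid level. Over all treatments it had r = 0.618 with Gstp1 there (adjusted permutation p = 0.00447, n = 37). The part of the thyroid trace in the liver Gstp1 values was not tested. Gstt1 was highest in thyroid (147, 177 and 209 CPM), followed by liver (44.6, 96.8 and 122 CPM), pituitary (32.3, 48.2 and 59.2 CPM) and hypothalamus (20.9, 31.2 and 53.8 CPM). The last 3 of these ranges overlap in neighbouring pairs.

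Between vehicle tissues, edgeR's quasi-likelihood test with Benjamini-Hochberg adjustment over 6560 genes called most genes, so the members' calls have to be read against that background. Liver against thyroid gave 4 members higher and 3 lower (64.8% of all genes called), liver against pituitary 7 and 1 (70.5%), liver against hypothalamus 7 and 1 (75.4%), thyroid against pituitary 6 and 2 (68.3%), thyroid against hypothalamus 6 and 1 (76.1%) and pituitary against hypothalamus 2 and 1 (68.2%). Gsta2 was 6.74 ± 0.27 higher (log2 fold change ± SE) in liver than in thyroid, and Gstm1 6.44 ± 0.19 higher. Gsta3 (-3.92 ± 0.19), Gstp1 (-3.61 ± 0.14) and Gsta4 (-0.91 ± 0.14) were lower in liver. The pituitary and hypothalamus differed in Gstm2 (4.597 ± 0.27), Gstt1 (1.13 ± 0.15) and Gstm1 (-1.32 ± 0.15), with adjusted p of 8.44e-10 or below by edgeR. The other 5 members did not pass there; Gsta1 was at -0.06 ± 0.18, Gsta4 at 0.08 ± 0.13 and Gstp1 at 0.11 ± 0.11.

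The scaling decided some of these directions. Without the TMM factors of edgeR, the median log2 fold change of all genes between liver and thyroid moved from -0.28 to -1.37, between liver and pituitary from -0.225 to -1.05, between liver and hypothalamus from -0.22 to -1.62, between thyroid and pituitary from 0.04 to 0.34, between thyroid and hypothalamus from -0.01 to -0.28 and between pituitary and hypothalamus from -0.09 to -0.66. Over all genes, 1745 were higher and 2509 lower in liver than in thyroid with TMM, against 823 and 4792 without. The same split went from 2024 and 2602 to 1210 and 4028 against pituitary, and from 2155 and 2794 to 1003 and 4874 against hypothalamus. Between thyroid and pituitary it went from 2322 and 2158 to 3093 and 1573, between thyroid and hypothalamus from 2488 and 2504 to 1978 and 3128, and between pituitary and hypothalamus from 2028 and 2449 to 992 and 3874. Gsta1 in liver against thyroid flipped from 0.58 ± 0.18 (adjusted p = 0.00537) to -0.53 (adjusted p = 0.00499), and Gstt1 from 0.21 ± 0.13 (adjusted p = 0.157) to -0.91 ± 0.13 (adjusted p = 2.78e-09), all by edgeR. Gsta4 in liver against hypothalamus flipped from 1.19 ± 0.14 to -0.18, and Gstm2 in liver against pituitary went from 0.88 ± 0.22 to 0.06. Without TMM, Gsta1 (-0.63 ± 0.17), Gsta4 (-0.50 ± 0.12) and Gstp1 (-0.46 ± 0.11) were also called lower in pituitary than in hypothalamus, which turned the uncalled directions of Gsta4 and Gstp1. The directions of Gsta2, Gsta3, Gstm1 and Gstp1 between liver and each other tissue were the same on both scales.

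PFOS moved none of the members past the threshold in any tissue. The question was asked in 7 contrasts per tissue: PFOS against vehicle, PFOS in vancomycin-treated rats, both pooled into 1 PFOS effect, vancomycin against vehicle, vancomycin in PFOS-treated rats, both compounds against vehicle, and the interaction. PFOS against vehicle, vancomycin against vehicle and both compounds against vehicle share the vehicle libraries. Low counts kept Gsta3 out of the liver test, Gstm2 out of the thyroid test, Gsta2 and Gsta3 out of the pituitary test, and Gsta2, Gsta3 and Gstm2 out of the hypothalamus test. Over the remaining 175 tests, edgeR called 0 and DESeq2 called 0, limma voom called 1, and 9 (5.14%) had an unadjusted edgeR p under 0.05. The lowest adjusted p was 0.127 by edgeR, and the largest log2 fold change in size was 0.67. Over all genes, unadjusted edgeR p was under 0.05 in the pooled PFOS effect for 555 of 3250 in liver and 1492 of 5091 in thyroid. In pituitary it was so for 430 of 4380 genes and in hypothalamus for 2178 of 6596. The members among these were 0 of 7, 0 of 7, 1 of 6 and 1 of 5. For vancomycin against vehicle the genes were 99, 131, 205 and 179 in the same order, with 1, 0, 0 and 0 members.

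Cyp2b1 and Cyp2b2, cytochromes P450 induced through CAR, serve as the reference of a PFOS response in liver. The mean of Cyp2b1 was 21.8 CPM in vehicle, 20.4 with vancomycin, 327 with PFOS and 398 with both, a pooled log2 fold change of 4.04 ± 0.30 (adjusted p = 2.7e-12, edgeR). Cyp2b2 rose by 2.59 ± 0.16. Over all genes, the pooled effect called 3.6% of 3250 liver genes, and PFOS against vehicle 0.831%, PFOS in vancomycin-treated rats 0.923% and both compounds against vehicle 0.769%.

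**Figure D2:**
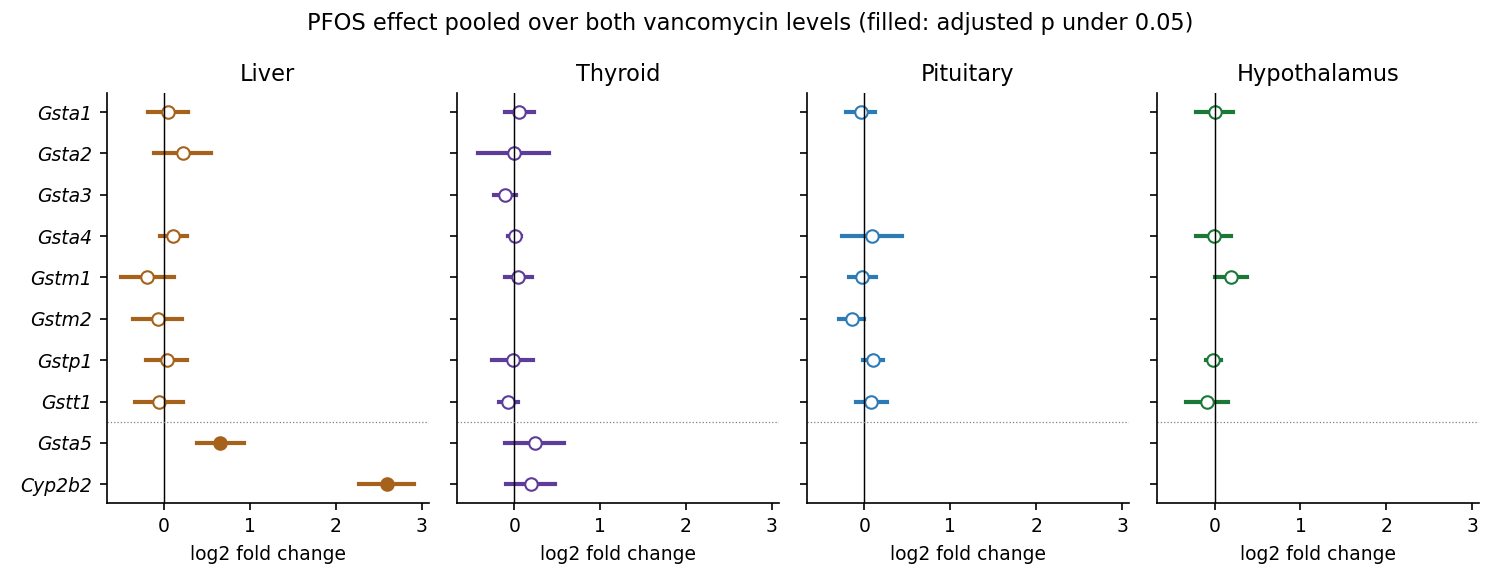
Log2 fold change with its 95% confidence interval (edgeR) of the pooled PFOS effect for each member tested in a tissue, and below the dotted line for Gsta5 and Cyp2b2 where tested. The members' intervals lie near 0, and the filled points, Gsta5 and Cyp2b2 in liver, passed an adjusted p of 0.05.

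In liver, Gsta1 ran from 1105 to 2849 CPM in vehicle (median 2257), from 1635 to 2219 with vancomycin (2049), from 1386 to 2482 with PFOS (2063) and from 1676 to 3154 with both (2216). All 4 ranges overlap, and the pooled PFOS fold was 1.03 (95% confidence interval 0.880 to 1.21). Gsta2 had medians of 2875, 2500, 2844 and 3139 CPM in the same order, within ranges of 1524 to 4022, 1507 to 4149, 1432 to 4432 and 2521 to 5159 CPM. Its pooled fold was 1.16 (0.923 to 1.46). Gsta4 was the steadiest, with ranges of 189 to 247, 199 to 260, 210 to 296 and 218 to 270 CPM and a pooled fold of 1.08 (0.965 to 1.201).

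Gstm1 in liver had medians of 5606 CPM in vehicle, 5410 with vancomycin, 3849 with PFOS and 4878 with both, and its ranges of 2732 to 7897, 3246 to 7639, 2124 to 7515 and 2494 to 7244 CPM overlap throughout. The pooled fold was 0.874 (0.708 to 1.08). Gstm2 gave 0.949 (0.777 to 1.16), Gstp1 1.02 (0.867 to 1.21) and Gstt1 0.961 (0.790 to 1.17). Gsta3, too low for the fit, averaged 11.1, 8.93, 12.6 and 15.5 CPM in vehicle, vancomycin, PFOS and both. A change of each tested member beyond about 1.5-fold in either direction thus lies outside its 95% interval in the pooled comparison. Data simulated on these libraries gave a call for 70.5% of liver genes changed 1.5-fold and 98.4% of those changed 2-fold in the pooled PFOS effect over 3250 genes, and for 26.2% and 76.6% in PFOS against vehicle.

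**Figure D3:**
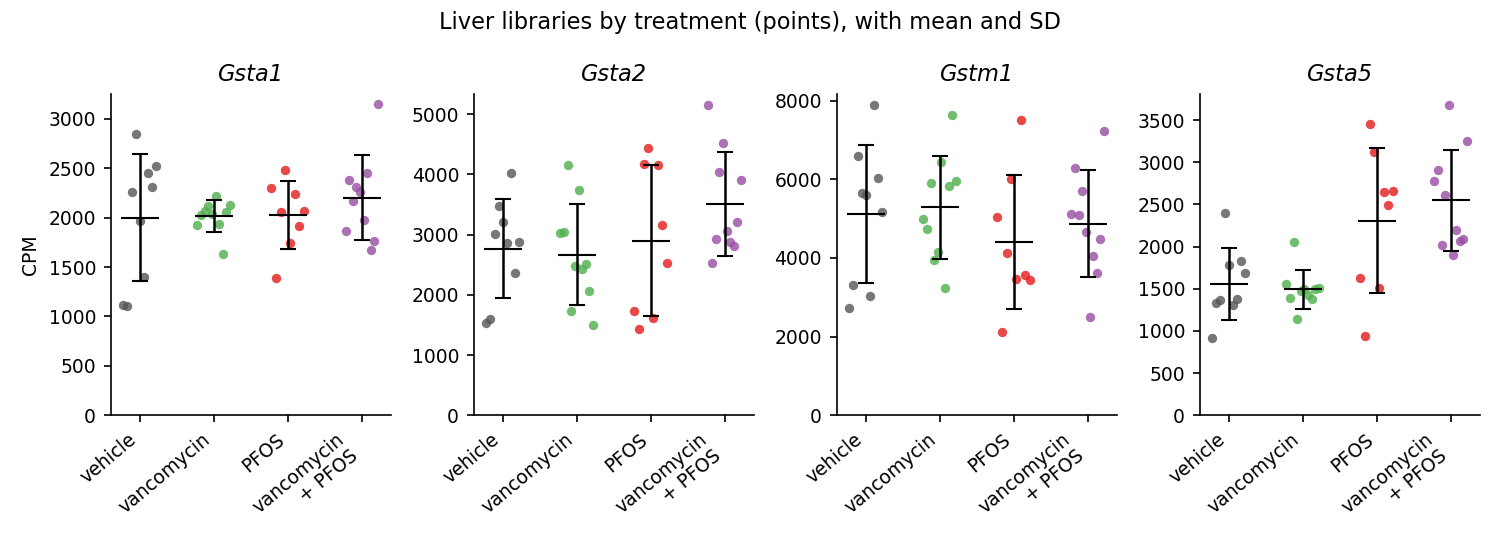
CPM (linear axis from 0) of Gsta1, Gsta2, Gstm1 and Gsta5 in every kept liver library (points) by treatment, with mean and SD. The groups of the 3 members overlap, while the Gsta5 means are 2307 and 2547 CPM in the PFOS groups against 1554 and 1493 CPM in the others.

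One glutathione transferase outside the 8 did change in liver. Gsta5, another hepatic alpha-class gene, ran from 915 to 2396 CPM in vehicle (median 1378), from 1146 to 2049 with vancomycin (1487), from 942 to 3454 with PFOS (2571) and from 1901 to 3678 with both (2400). All 10 libraries of the combined group lie above 9 of the 10 vancomycin libraries, and the PFOS group spans nearly the whole range of the tissue. The pooled fold was 1.57 (95% confidence interval 1.30 to 1.91), a log2 fold change of 0.65 ± 0.14 with adjusted p = 0.00255 by edgeR. In vancomycin-treated rats it was 0.73 ± 0.19 (adjusted p = 0.0357), against vehicle 0.57 ± 0.20 (0.244), and for both compounds against vehicle 0.70 ± 0.19 (0.0699). The pooled call was made in all 37 fits that left out 1 liver library and in 12 of 13 other settings, and was lost with all libraries kept (0.50, adjusted p = 0.256). The value in vancomycin-treated rats was called in 24 of 37 such fits. It lost its call without numbers 13, 14, 16, 18, 19, 20, 21, 23 or 24 of the vancomycin group and without 37, 38, 41 or 47 of the combined group, with log2 fold changes between 0.64 and 0.74 and adjusted p up to 0.128. By pattern across liver libraries, Gsta5 was the gene most like the member Gsta2 (Pearson r = 0.722 after removing treatment means). The interval of Gsta2 includes 1, but whether the Gsta5 and Gsta2 changes differ was not tested.

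Which copy a read belongs to is uncertain among these genes. Symbols are used as the tables give them, and in the GRCr8 annotation Gsta1 carries the names Gsta3 and Gsta5 as synonyms, Gsta2 carries Gsta1, Gsta3 carries Gsta5 and Gsta5 carries Gsta2. Reads from near-identical 3′ ends may have been assigned to a neighbour or dropped.

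The sum of 10 general hepatocyte markers was lower in the PFOS groups of liver. The summed level of these markers, all detected, averaged 233200 CPM ± 10710 in vehicle, 239700 ± 8882 with vancomycin, 208800 ± 17140 with PFOS and 204200 ± 22400 with both. In those groups the sum of 11 periportal hepatocyte markers averaged 81650 CPM ± 9300, 81660 ± 4879, 79200 ± 16630 and 73040 ± 12940. The sum of 11 pericentral hepatocyte markers did not follow, at 3945 CPM ± 517, 3970 ± 744, 3742 ± 473 and 4770 ± 677. Of these markers Slc1a4 was at 0 in every liver group, and Lgr5 in all but the combined group. The summed thyroid follicular markers in liver were 1245 CPM ± 788, 958 ± 118, 1200 ± 465 and 1150 ± 503. In the same order the Kupffer cell and macrophage sum averaged 433, 444, 424 and 374 CPM, the stellate cell and fibroblast sum 190, 154, 170 and 140 CPM, the endothelial sum 131, 118, 123 and 114 CPM and the cholangiocyte sum 61.5, 51.0, 56.8 and 50.7 CPM, with group means within 1 vehicle SD of the vehicle mean. The part of the hepatocyte sum in the liver values was not tested. With the Tg level as a covariate, 0 members were called and Gsta5 was at 0.71 (adjusted p = 6.52e-05, edgeR).

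In thyroid, where PFOS called 13.1% of 5091 genes in the pooled effect, 0.0589% against vehicle, 3.26% in vancomycin-treated rats and 2.95% for both compounds against vehicle, 0 of 7 members was called. The pooled folds lay between 0.927 (0.851 to 1.01) for Gsta3 and 1.04 (0.925 to 1.18) for Gsta1. Gsta4 was closest to no change, at 1.002 (0.949 to 1.06). Gsta3, the thyroid gene of the set, ran from 287 to 401 CPM in vehicle and from 228 to 375 with PFOS, a log2 fold change of -0.22 ± 0.09 (unadjusted p = 0.0169, adjusted 0.198, edgeR). With both compounds it ran from 251 to 404 CPM, over the whole vehicle range. The summed parathyroid and C cell markers in thyroid, all 5 detected, averaged 52660 CPM ± 8561 in vehicle, 44640 ± 19930 with PFOS (lowest 8429) and 52860 ± 14700 with both. The summed follicular markers averaged 48770 CPM ± 12050, 62820 ± 9031 and 60660 ± 13430 in those groups, with 1 of 8, Slc26a4, at 0 in the PFOS groups. The part of these markers in the Gsta3 values was not tested. With log2 depth as a covariate, the pooled effect called 0 thyroid genes in all; depth fell from a median of 841097 counts in vehicle to 383436 with both.

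In pituitary, PFOS called 1.19% of 4380 genes against vehicle, 0% in vancomycin-treated rats (295 at unadjusted p under 0.05, 0 by DESeq2 and limma voom), 1.44% in the pooled effect and 1.37% for both compounds against vehicle, and 0 of 6 members was among them. Gstm2 was at -0.23 ± 0.11 with PFOS against vehicle (means 92.0 and 108 CPM, n = 12 each, unadjusted p = 0.0384, adjusted 0.74, edgeR). Gstp1 was at 0.17 ± 0.08 for both compounds against vehicle (means 686 and 586 CPM, unadjusted p = 0.0389, adjusted 0.607, edgeR). The widest pooled interval was that of Gsta4, 0.834 to 1.36.

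In hypothalamus, the tissue with the most PFOS calls (20.5% of 6596 genes in the pooled effect, 4.44% against vehicle, 7.91% in vancomycin-treated rats, 8.14% for both compounds against vehicle), 0 of 5 members was called by edgeR. Gstm1, an astrocyte-rich mu-class gene in brain, came closest. Its medians were 1140 CPM in vehicle, 970 with vancomycin, 1366 with PFOS and 1272 with both, within overlapping ranges of 722 to 1348, 783 to 1543, 667 to 1853 and 982 to 1644 CPM. The pooled fold was 1.14 (1.01 to 1.30), with adjusted p = 0.127 by edgeR, and limma voom called it. In the same groups the summed astrocyte markers, all 8 detected, averaged 8562 CPM ± 964, 8564 ± 823, 8342 ± 816 and 7731 ± 460. The Gh1 trace had r = 0.358 (rho 0.561) with Gstm1 over the 47 libraries (adjusted permutation p = 0.0169 over 15 relations). Their part in the Gstm1 values was not tested. Gsta1, Gsta4 and Gstp1 had pooled folds of 1.001, 0.991 and 0.991, the last with an interval of 0.935 to 1.05.

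Whether the pooled PFOS effect on a member differs between liver and another tissue was tested directly. No member was called (edgeR, DESeq2: 0 in each comparison), against 5.77% of all genes for liver and thyroid, 0.2% for liver and pituitary and 6.53% for liver and hypothalamus. At an unadjusted edgeR p under 0.05 there was 1, Gstm1 between liver and hypothalamus, at -0.38 ± 0.18 (p = 0.0341, adjusted 0.205).

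Vancomycin and the interaction gave 1 call in all by edgeR, and it was no member. Vancomycin called 0% of genes in liver, thyroid and hypothalamus, against vehicle or in PFOS-treated rats, and in pituitary 0.0228% against vehicle and 0% in PFOS-treated rats. The interaction of the compounds called 0% in each tissue, with 58 (liver), 205 (thyroid), 134 (pituitary) and 278 (hypothalamus) genes at unadjusted p under 0.05. At unadjusted p under 0.05 the numbers of genes were 99 and 114 in liver, 131 and 318 in thyroid, 205 and 122 in pituitary and 179 and 489 in hypothalamus for the 2 vancomycin contrasts. Over these 12 contrasts DESeq2 called 2 genes in thyroid in PFOS-treated rats and 1 in pituitary against vehicle, and limma voom 2 in the latter. Liver Gstp1 was at -0.38 ± 0.17 with vancomycin (p = 0.0266, adjusted 1, edgeR): its range was 45.9 to 178 CPM in vehicle and 40.3 to 72.5 with vancomycin. The vehicle maximum was number 2, and the next library was at 103.7 CPM. The summed thyroid follicular markers in liver averaged 1245 CPM ± 788 in vehicle and 958 ± 118 with vancomycin, and Tg had r = 0.618 with Gstp1 over the 37 livers (rho 0.551, adjusted permutation p = 0.00447, r = 0.433 without the 2 farthest). The summed cholangiocyte markers averaged 61.5 CPM ± 20.04 and 51.0 ± 9.43 in those groups, and their part in that value was not tested. Thyroid Gsta2 was at -0.67 ± 0.31 with vancomycin in PFOS-treated rats (p = 0.0366, adjusted 0.762, edgeR), with medians of 58.3 and 35.3 CPM.

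The rest of the glutathione pathway gave few calls in liver. In the pooled PFOS effect, which called 3.6% of all liver genes (70 higher and 47 lower), 1 of 13 tested other glutathione transferases rose (Gsta5) out of 25 listed, and 0 of 8 genes of glutathione synthesis and recycling, 0 of 7 of conjugate export and mercapturate formation, 0 of 11 glutathione peroxidases and thiol enzymes and 0 of 7 regulators was called. At unadjusted edgeR p under 0.05 these lists had 3, 3, 0, 2 and 3 genes, against 555 of all 3250 liver genes. The median log2 fold change was 0.20 for the other transferases, 0.03 for the members and -0.01 for all genes. Among 13 other NRF2 targets, 3 rose and 1 fell, with a list median of -0.18. Ephx1, microsomal epoxide hydrolase, went from 927 CPM ± 330 in vehicle and 769 ± 105 with vancomycin to 1344 ± 368 and 1292 ± 231 in the PFOS groups, 0.63 ± 0.11 on the log2 scale (adjusted p = 0.00028, edgeR). The aldo-keto reductases Akr7a3 (0.52 ± 0.11, adjusted p = 0.00175) and Akr7a2 (0.41 ± 0.10, adjusted p = 0.0178) rose, and transketolase (Tkt), an enzyme of the pentose phosphate pathway, fell by 0.48 ± 0.10 (adjusted p = 0.0028), all by edgeR. Ephx1 and Akr7a3 were called in 11 of 13 other settings, Tkt in 10 and Akr7a2 in 8. Keeping all libraries, or thinning each to 100000 counts, ended the calls of Ephx1 and Akr7a3. In vancomycin-treated rats Nr1i3, which encodes CAR, rose by 1.0 ± 0.25 (adjusted p = 0.0357, edgeR; called in 11 of 13 settings). Ephx1 is also known to be induced through CAR, and the part of CAR in the Ephx1 rise was not tested.

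Outside the liver the pathway calls lay on other genes. In hypothalamus the pooled PFOS effect called 20.5% of all 6596 genes, 598 higher and 752 lower. Of 13 glutathione peroxidases and thiol enzymes tested there, 5 fell. They were Gpx1 (glutathione peroxidase, -0.43 ± 0.08, adjusted p = 0.00013), Prdx6 (peroxiredoxin, -0.39 ± 0.07, adjusted p = 5.71e-05), Hagh (hydroxyacylglutathione hydrolase, -0.29 ± 0.08), Gpx4 (-0.20 ± 0.06) and Glrx5 (-0.38 ± 0.14), by edgeR. Gpx1 and Prdx6 passed in 11 of 12 other settings, Hagh and Gpx4 in 10, and Glrx5 in 4 of 11. Thinning every library to 100000 counts ended the calls of the first 4 and left 49 calls in the tissue against 1350. Over the settings Prdx6 ran from -0.40 to 0.08. The median depth was 875790 counts in vehicle, 751641 with vancomycin, 662537 with PFOS and 531350 with both, and Hagh and Gpx4 lost their calls with depth as a covariate. Among 14 other NRF2 targets 2 fell, Cbr1 (carbonyl reductase) by 0.43 ± 0.10 (adjusted p = 0.00119, edgeR) and Fth1 (ferritin heavy chain) by 0.14 ± 0.05, the latter called in 2 of 12 settings. The transferases Gsto1 (-0.295 ± 0.101) and Gstt3 (-0.24 ± 0.09) also fell, called in 6 and 3 of 12 settings. Ggt7, a gamma-glutamyl transferase family gene, rose by 0.46 ± 0.11, and Cndp2, a dipeptidase, by 0.25 ± 0.07. Cbr1 and Ggt7 were called in 10 of 12 other settings and Cndp2 in 8. Cbr1, Ggt7 and Cndp2 each lost the call with depth as a covariate and with thinning to 100000 counts. In thyroid Acy1, which deacetylates mercapturic acids, rose by 0.26 ± 0.08 and Ggct, gamma-glutamylcyclotransferase, fell by 0.31 ± 0.11; both calls were lost in 6 of 12 settings, depth as a covariate among them. In pituitary 0 listed genes were called in the pooled effect by edgeR.

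The members differed widely in how much they varied between libraries of 1 group. Gsta4 was at once the least and among the most variable. In liver, its SD of log2 CPM within treatments was 0.131, below each of the 1992 genes compared, and its coefficient of variation of 9.36% was no larger than the 10.9% that counting alone gives. In thyroid the SD was 0.105, larger than that of 0.26% of 3075 genes. In pituitary the SD was 0.653, larger than that of 97.4% of 2590 genes, with libraries from 69.0 to 328 CPM and a coefficient of variation of 40.5% against 10.3% from counting. Gstp1 in hypothalamus was also steady, with an SD of 0.126, larger than that of 3.21% of 4170 genes. Gsta2 in thyroid was the most variable of the tested members there (SD 0.680, larger than 95.7% of genes).

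Gsta4 in pituitary and hypothalamus varied together by library number. Libraries of 1 number lay in different wells with different barcodes in these tissues, but on the same plate and in the same well column. Within a treatment, number and well column thus cannot be told apart. The labels do not say that libraries of 1 number came from 1 animal. Over 47 pairs, treatment means removed, Pearson's r of log2(CPM + 1) was 0.698 and Spearman's rho 0.644. The permutation p of each was 1e-05, the smallest that 100000 permutations can give, and 0.00032 after adjustment over the 32 member relations between tissues. Within treatments r was 0.509 in vehicle, 0.850 with vancomycin, 0.704 with PFOS and 0.766 with both. Without the 2 libraries farthest from the pituitary median it was 0.665, and after removing log2 depth 0.621. Among 2403 genes measured in both tissues Gsta4 ranked 4 (median r 0.0235), and Ifi27 (0.907) and Retsat (0.784) were among those above it. Between liver and pituitary, which share wells and barcodes, r of Gsta4 was 0.495 (rho 0.508, adjusted permutation p = 0.0298), and between thyroid and the other tissues it lay from -0.235 to -0.167. Gsta1 was related between thyroid and pituitary (r = 0.486, rho 0.556, adjusted permutation p = 0.00864, n = 46) and between liver and pituitary (r = 0.552, rho 0.355, adjusted permutation p = 0.0298 for r, n = 37), the latter at 0.376 without the 2 farthest libraries. Over 1329 genes of liver and pituitary the median r was 0.201, with 87% of genes below Gsta4 and 90.5% below Gsta1. Between thyroid and pituitary 98.5% of 2181 genes lay below Gsta1 (median r 0.0158). Without libraries of unusual barcode, r between liver and pituitary was 0.458 for Gsta4 and 0.281 for Gsta1 (unadjusted permutation p = 0.0132 and 0.138, n = 32).

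**Figure D4:**
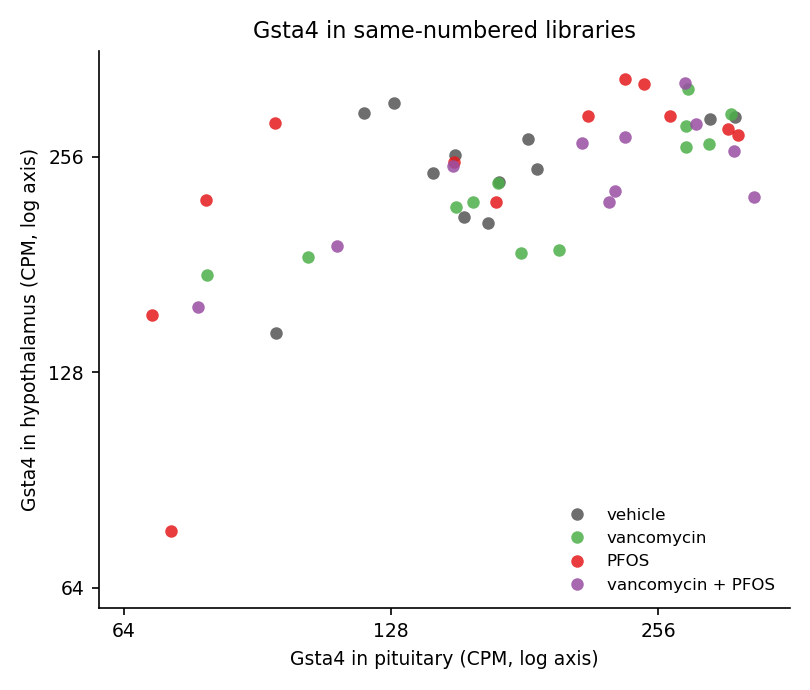
Gsta4 CPM in pituitary (x, log axis) against hypothalamus (y, log axis) for 47 library numbers, coloured by treatment. Numbers low in pituitary tend to be low in hypothalamus in each treatment, and the points form a continuous band from 69.0 to 328 CPM on x and 76.8 to 329 CPM on y.

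Within liver some pairs of members varied together. Over 37 libraries and 21 pairs, 6 relations passed an adjusted permutation p of 0.05. How many pairs of other genes would pass in these libraries was not measured. Gsta1 and Gstm1 were most alike (r = 0.708, rho 0.733, adjusted permutation p = 0.00021), with r = 0.660 without the 2 farthest libraries. Within treatments it was 0.886 in vehicle, 0.0959 with vancomycin, 0.884 with PFOS and 0.608 with both. Gstm1 and Gstm2 had r = 0.511 (0.416 without the 2 farthest), Gsta2 and Gsta4 0.495 (0.492), and Gsta2 and Gstm1 0.511 (0.384). The other 2 did not pass by rank (adjusted permutation p = 0.0731 for rho of each). Gsta1 and Gsta2 had r = 0.485, and 0.338 without the 2 farthest; within treatments it was 0.819 in vehicle, -0.0123 with vancomycin, 0.669 with PFOS and 0.0836 with both. Gsta1 and Gstp1 had r = -0.522, and -0.261 without the 2 farthest, with -0.802, 0.225, -0.0241 and -0.493 in the same order. Some members varied with the thyroid trace: Tg in liver had r = -0.713 with Gsta1, -0.606 with Gsta2, -0.580 with Gstm1 and 0.618 with Gstp1 (adjusted permutation p = 0.00447 or below over 15 relations). With Tg removed 1 relation passed, Gsta1 with Gstm1 (r = 0.515, adjusted permutation p = 0.0386). Gsta2 with Gsta4 then had r = 0.426 and Gstm1 with Gstm2 0.408, while Gsta1 with Gsta2 had 0.0958 and Gsta2 with Gstm1 0.246. Gsta4 itself had r = -0.281 with Tg (adjusted permutation p = 0.129). Without the livers of unusual barcode 2 passed (n = 32). At 500000 counts or more 0 passed (n = 17; 4 unadjusted p under 0.05), with r of 0.612 for Gsta2 with Gsta4 and 0.675 for Gstm1 with Gstm2.

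**Figure D5:**
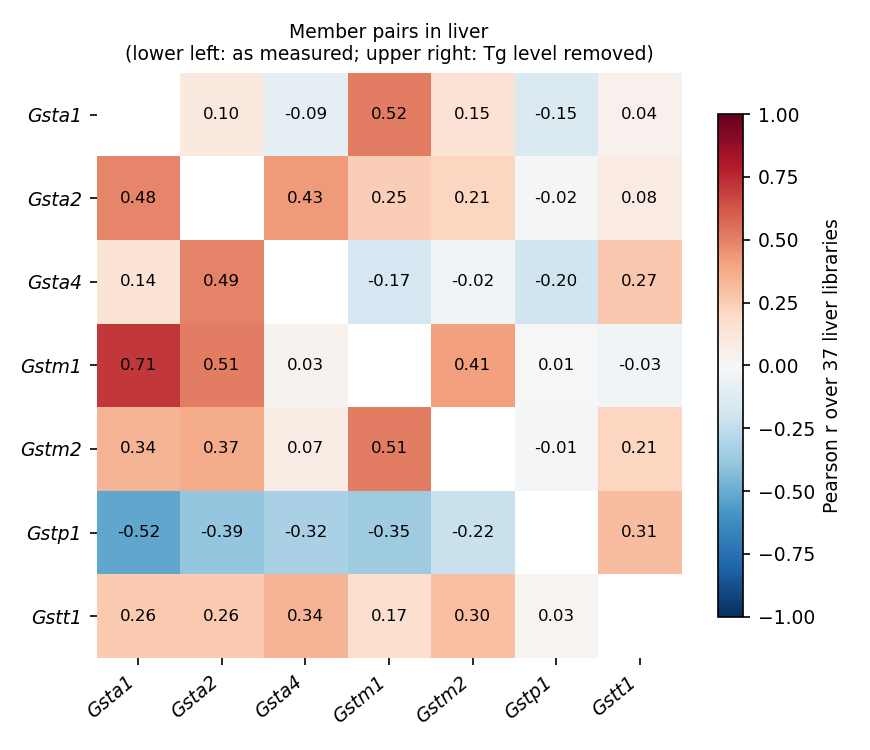
Pearson r of treatment-centred log2(CPM + 1) between members over 37 liver libraries, as measured (lower left) and with the log2 Tg level also removed (upper right). Gsta1 and Gstm1 give 0.71 below and 0.52 above the diagonal, and Gstp1 and Gsta1 give -0.52 and -0.15.

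By pattern across liver libraries, the genes most like each member were, as a description over 3250 genes, Prdx1 (r = 0.879), Pecr (0.827) and Gstz1 (0.792) for Gsta1, Gsta5 (0.722), Cnbp (0.690) and Tdo2 (0.671) for Gsta2, and Tf (0.911), Ube2v1 (0.879) and Hsd17b10 (0.847) for Gstm1. The best match was 0.572 for Gsta4 (Cd302), 0.616 for Gstm2 (Cyp2d1), 0.7 for Gstp1 (Ninj1) and 0.667 for Gstt1 (Tmem223). Across the 16 group means, which fall into 4 tissues, Gsta2 was most like the liver plasma protein genes Serpinc1, Ttr and Ambp (0.998 each), Gsta3 like Calca (calcitonin, of thyroid C cells, 0.998), and Gstm1 like the sterol synthesis gene Fdps (0.997). Gsta1 was most like Hhex (0.994), Gsta4 like Pla2g4a (0.991), Gstm2 like Oaf (0.969), Gstp1 like Rps6ka4 (0.996) and Gstt1 like Abhd14b (0.994).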

How the data were processed

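Whole-tissue RNA was measured by bulk RNA barcoding and sequencing in 2 plates. The deposited values are raw counts per gene and library, in 2 tables. BWA 0.7.4.4 and the rn6 build are named, without a role, per the submitters' processing notes, and the use of strand is not given in the sources used here. Groups were taken from the labels, with 12 libraries each. Libraries under 100000 counts were left out. The 8 members and the gene lists were chosen with earlier results of these data known.

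CPM was computed from each library's total. Within each tissue all 4 treatments were fitted together with edgeR 4.0.16 (R 4.3.3) after filterByExpr (minimum count 10) and TMM scaling, using the quasi-likelihood test and Benjamini-Hochberg adjustment over all genes (threshold 0.05). Vehicle tissues, and the PFOS effect between tissues, were fitted the same way across tissues. DESeq2 1.42.0, limma 3.58.1 (voom), other scalings, filters, depths and left-out livers were alternatives. The fits were tested on simulated data with 200 changed genes. Correlations used log2(CPM + 1) with treatment means removed and 100000 permutations (Python 3.11.15, numpy 2.4.6, pandas 2.3.3, scipy 1.17.1, matplotlib 3.10.9).

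Same-numbered thyroid and hypothalamus libraries, which share wells and barcodes, deviated together in 45 of 45 pairs (r over 0.1, median 0.254), and no other pair of tissues did so in every pair. Named were all 8 members, each listed gene called in a liver contrast, up to 4 per list and contrast elsewhere, the 3 genes most like each member in liver and across the 16 group means (mean of at least 20 CPM in a group), and Cyp2b1 and Cyp2b2 as a reference; some genes this rule names are not reported here. Alternatives on Tg, Gsta5, barcodes in correlations and Gsta4 depth were chosen after seeing the data.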

Additional observations from a re-analysis of the deposited data

Results flagged for a closer look

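In 35 groups of members with 4 to 10 libraries, 4 had 1 library far from the others, where chance gives about 1 in 20. Gsta1 in the livers given vancomycin was lowest in number 21, at 1635 CPM against 1925 CPM in the next library. Gsta1 in the livers given both compounds was highest in number 47, at 3154 CPM against 2447 CPM. Gsta2 in thyroid with PFOS was highest in number 34, at 169.1 CPM against 84.17 CPM. Gstp1 in vehicle liver was highest in number 2, at 178 CPM against 103.7 CPM.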

How the results depend on the processing

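The count of members called within tissues was the same in 621 alternatives, with 1 exception, and every fit that left out 1 liver library called 0 members. The exception was limma voom, which called 1 member (Gstm1) in the pooled PFOS effect in hypothalamus. Library totals without TMM raised the members called between vehicle pituitary and hypothalamus from 3 to 6 and reversed Gsta1 between liver and thyroid (-0.53) and Gsta4 between liver and hypothalamus (-0.18). Of the liver relations, 6 were called as reported, 0 at 500000 counts or more, 2 without unusual barcodes and 1 with Tg removed; fewer libraries (17 and 32) entered the first 2 of these, and the cause was not otherwise tested. With the replicate block, the vehicle comparisons called 7, 8, 8, 8, 7 and 3 members, as without it, and the PFOS differences between tissues 0. Over all genes the replicate block lowered the calls for those differences from 336 to 106 (liver and thyroid) and from 470 to 240 (liver and hypothalamus). Pooled PFOS calls over all genes ran from 16 to 172 in liver, 0 to 987 in thyroid, 0 to 67 in pituitary and 49 to 1496 in hypothalamus. The lowest of these came with depth as a covariate in thyroid and with thinning to 100000 counts in the other tissues. Low counts limit Gsta3 and Gsta2 outside their main tissue.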
